A study of Mus musculus with 15 samples.

Results

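The levels of 8 genes of cholesterol synthesis and its control were followed through T cell development in the mouse thymus: Hmgcs1, Idi1, Fdft1, Sqle, Lss, Cyp51, Sc5d and Insig1. They were taken by gene symbol from the probe annotation of the array platform, so they are 8 of the 18193 genes measured, and all 8 were among the 11871 genes bright enough to be tested. Of these 8, 7 encode enzymes of the synthesis pathway and 1 encodes a regulator, and none encodes a receptor that takes up lipoprotein. RNA from sorted thymocytes was hybridised to 1 expression array per sample, with 3 samples in each of 5 groups and 15 arrays in all. PreDP (CD69-negative, TCRβ-negative) and PostDP (CD69-positive, TCRβ-positive) cells were double-positive thymocytes before and after positive selection, from B2m-/- mice, which select only MHC II-restricted CD4 T cells. SM&M1 (Qa2-negative, CD69-positive) and M2 (Qa2-positive, CD69-negative) cells were CD4 single-positive thymocytes of Rag2GFP mice, gated to leave out NKT cells, regulatory T cells, γδ T cells and recirculating T cells. Tak1-deficient SM&M1 cells carried the same surface markers and came from Tak1f/fCD4Cre mice, in which Cre driven by CD4 deletes the floxed kinase gene from the double-positive stage onward. All mice were young adults on the C57BL/6 background. Mouse line therefore changed together with stage between PostDP and SM&M1 and between PreDP and M2, and together with Tak1 loss between the SM&M1 groups, and in these comparisons the effects of line cannot be told apart from those of stage or Tak1. The labels call the samples biological replicates without saying that they came from separate animals, so a p-value here reflects sample-to-sample spread that may be technical.

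Cells make cholesterol from acetyl-CoA through mevalonate, isoprenoids, squalene and lanosterol, and the same route supplies the isoprenoids that anchor small GTPases to membranes. When membranes of the endoplasmic reticulum are short of sterol, the SREBP transcription factors are carried to the Golgi, cut and released to switch on the synthesis genes, and Insig proteins hold them back when sterol is plentiful. Lymphocytes raise this programme when they grow and divide, and lower it when they come to rest.

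The promoters of the genes are shown first because the 8 genes are textbook targets of the SREBP factors. RefSeq sequences (GRCm38.p6) of the 250 bases before the transcription start were found for 6 of the 8 genes, all but Sqle and Fdft1. The 3 printed here run 5′ to 3′ on the strand of the gene: they are Hmgcs1, the enzyme at the head of the pathway, Idi1, an enzyme of the isoprenoid steps, and Insig1, the regulator. Capitals mark matches on either strand to the sterol regulatory element letters TCACNCCAC, the CCAAT box, which reads ATTGG on the opposite strand, or the letters of the E-box, CACGTG. Hmgcs1 lies at chr13:119690101-119690350 on the plus strand, Idi1 at chr13:8885356-8885605 on the plus strand and Insig1 at chr5:28071162-28071411 on the plus strand.
Hmgcs1: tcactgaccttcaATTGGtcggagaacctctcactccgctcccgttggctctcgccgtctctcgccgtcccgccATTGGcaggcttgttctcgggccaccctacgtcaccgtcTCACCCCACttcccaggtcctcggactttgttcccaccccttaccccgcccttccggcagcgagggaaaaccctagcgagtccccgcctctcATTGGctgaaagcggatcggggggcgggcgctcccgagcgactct
Idi1: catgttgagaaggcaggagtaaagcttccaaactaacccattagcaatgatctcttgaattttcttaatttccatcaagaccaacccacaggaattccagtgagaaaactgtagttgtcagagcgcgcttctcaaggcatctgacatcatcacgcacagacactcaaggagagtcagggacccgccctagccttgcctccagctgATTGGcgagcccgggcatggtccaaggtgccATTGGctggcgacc
Insig1: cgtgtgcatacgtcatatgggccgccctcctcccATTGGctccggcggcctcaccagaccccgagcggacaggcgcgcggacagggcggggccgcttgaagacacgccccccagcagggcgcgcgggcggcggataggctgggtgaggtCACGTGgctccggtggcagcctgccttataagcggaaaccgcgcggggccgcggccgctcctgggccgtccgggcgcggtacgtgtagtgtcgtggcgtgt
The letters TCACNCCAC occurred in 1 of the 6 promoters, Hmgcs1, from 137 to 129 bases before the start, and in 1.05% of 32851 promoters of the same length. CCAAT occurred in 6 of 6, against 33.8% of all promoters. CACGTG occurred in 2 of 6, Sc5d and Insig1, against 6.02%. These matches are descriptions of the letters in these windows.

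Levels are given as log2(signal + 16), where the signal is the deposited intensity of the gene's brightest probe set on average over 15 arrays, and differences are on the same scale. Differences were tested with limma over all 11871 genes and all 15 arrays, with a call at a Benjamini-Hochberg adjusted p under 0.05. Standard errors and 95% intervals are those of that fit, each SD is over 3 arrays, and precision is limited by how many arrays there are. In bulk samples such as these, fewer cells of a type and less RNA per cell cannot be told apart.

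The sorts and genotypes were checked on some of their defining genes. Map3k7, the gene of Tak1, was at 4.76 to 6.07 in the Tak1-deficient arrays and at 10.40 to 10.46 in SM&M1, and B2m was at 9.55 to 10.17 in the B2m-/- arrays and at 13.88 or more in all others. Cd8a was at 12.45 or more in PreDP and PostDP, at 7.65 to 8.03 in SM&M1, at 5.22 to 7.27 in M2 and at 9.28 to 10.22 in Tak1-deficient SM&M1. Cd69 RNA was at 9.04 to 9.19 in PreDP, 12.97 to 13.47 in PostDP and 12.36 to 12.66 in SM&M1. It was at 11.32 to 11.67 in M2 and at 11.09 to 12.91 in Tak1-deficient SM&M1. M2, sorted as CD69-negative on the surface, thus lay above PreDP in Cd69 RNA and within the Tak1-deficient range. The median signal was 80.5 to 121 in 14 arrays and 168 in Tak1-deficient replicate 2, where the 3′ signal of Actb exceeded the 5′ signal 1.62-fold (1.02 to 1.18 in the others). Its lowest correlation with an array of its own group was 0.873, where no array of the other groups had one under 0.965. Counts for the 8 genes and for the pathway lists are given with and without this array where they differ. The summed signal of 9 macrophage genes (of 10 on the list) stood out in 4 arrays. It was 1786 and 1788 in replicate 1 of SM&M1 and of M2 and 3022 and 2256 in Tak1-deficient replicates 2 and 3, against 394 to 796 in the other 11 arrays. Of the defining macrophage genes, C1qa was at 4.20 to 5.19 in the Tak1-sufficient arrays and up to 6.99 in the Tak1-deficient ones, and Lyz2 was at 4.94 to 7.39 in PreDP and PostDP and up to 9.46 in SM&M1, 9.53 in M2 and 9.85 in the Tak1-deficient arrays. All SM&M1 and M2 arrays held both the female transcript Xist (13.06 or more) and the Y-linked Eif2s3y (9.62 or more). In contrast, Xist spanned 7.19 to 13.65 in PreDP, 7.60 to 13.99 in PostDP and 7.42 to 14.01 in Tak1-deficient SM&M1. Eif2s3y spanned 4.10 to 11.73, 4.11 to 11.33 and 4.33 to 11.49 in these 3 groups. The part of sex in the results was not tested.

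In the fit of all arrays, none of the 8 genes passed the test in any single step between neighbouring stages. From PreDP to M2, Sqle fell by 1.04 and Insig1 by 0.98 on the log2 scale, and the other 6 were not called. The variance in that fit includes the outlying Tak1-deficient replicate 2, which is in none of these comparisons. Without that array the SE of Insig1 from PreDP to PostDP was 0.18 rather than 0.30, and Insig1 passed (limma adjusted p = 0.007). It also passed in the replicate block fit and when only the PreDP and PostDP arrays were fitted. Idi1 passed from PreDP to M2 without that array (limma adjusted p = 0.039). For each of Hmgcs1, Lss and Sc5d the means of the 4 Tak1-sufficient stages spanned 0.29 or less. The plot of levels by array shows every value, and the genes follow in the order of the pathway.

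**Figure D1:**
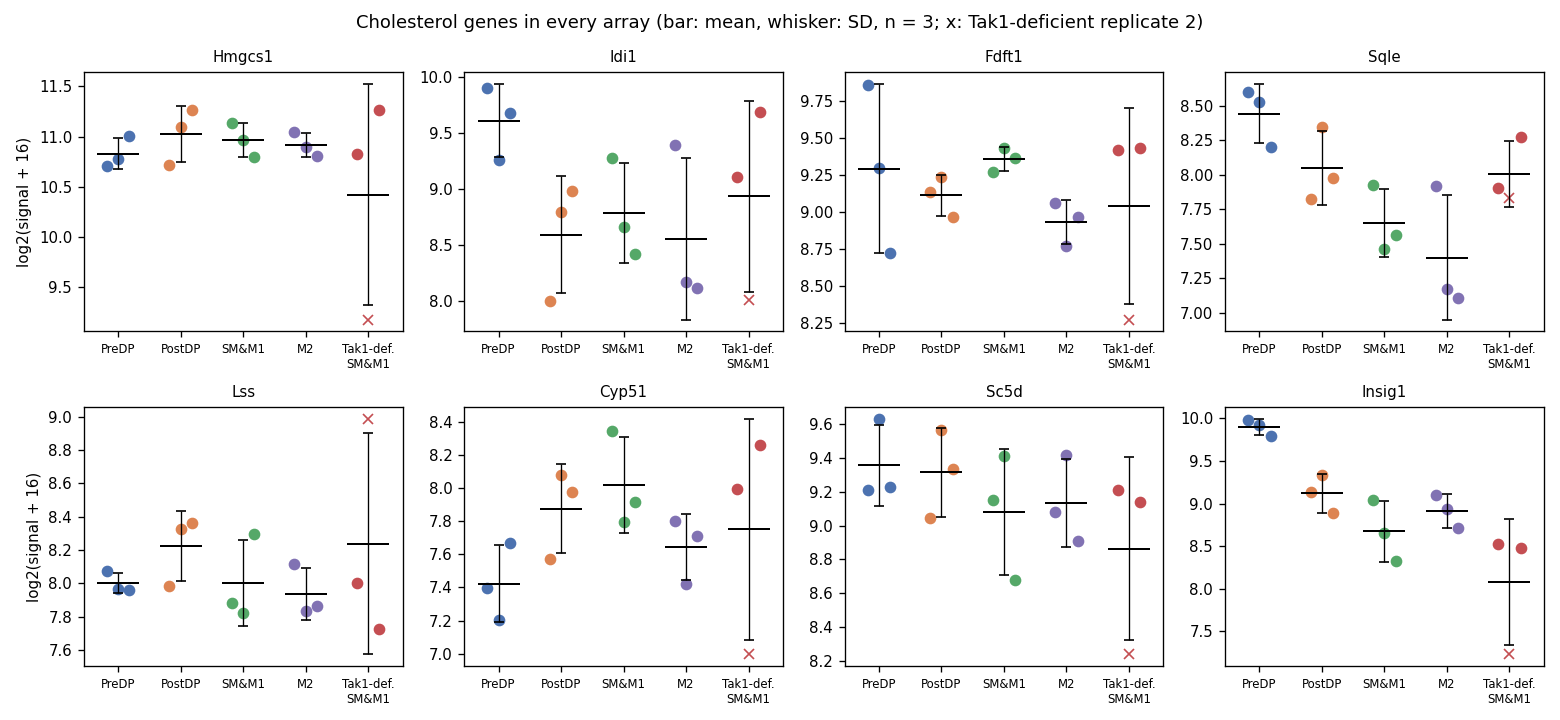
Level of the 8 genes in every array as log2(signal + 16) on the vertical axis, by group on the horizontal axis; points are arrays, bars are means and whiskers SDs (n = 3), the cross is Tak1-deficient replicate 2, and each panel has its own scale. The 3 PreDP arrays of Insig1 lie at 9.79 to 9.98, above every other array, and the cross is the lowest array of 5 genes and the highest of Lss.

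Hmgcs1 encodes the synthase that makes HMG-CoA early in the pathway. Its level was 10.71, 10.78 and 11.001 in PreDP replicates 1, 2 and 3, 10.72, 11.09 and 11.26 in PostDP, 11.13, 10.96 and 10.80 in SM&M1 and 11.05, 10.90 and 10.81 in M2. It was 10.83, 9.18 and 11.26 in Tak1-deficient SM&M1. The first 4 groups overlapped throughout, and only Tak1-deficient replicate 2 lay outside their range on the low side. No comparison passed: the difference from PreDP to M2 was 0.09 ± 0.39 (SE, n = 3 per group; 95% interval -0.75 to 0.92).

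Idi1 encodes the isomerase that sets the balance of the isoprenoid building blocks. Its level was 9.90, 9.26 and 9.68 in PreDP, 8.001, 8.79 and 8.99 in PostDP, 9.28, 8.66 and 8.42 in SM&M1 and 9.39, 8.17 and 8.11 in M2. Tak1-deficient SM&M1 had 9.11, 8.01 and 9.69. The PreDP arrays were all above the PostDP arrays, but replicate 1 of SM&M1 and of M2 lay within the PreDP range. PostDP differed from PreDP by -1.02 ± 0.44 (95% interval -1.98 to -0.06), which did not pass in limma (adjusted p = 0.163), and M2 differed from PreDP by -1.06 ± 0.44 (adjusted p = 0.101). Without Tak1-deficient replicate 2 the M2 difference had the same size with a narrower interval (-1.86 to -0.25) and passed in limma (adjusted p = 0.039), and the PostDP difference did not (0.064).

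The highest Idi1 arrays within SM&M1 and within M2, replicate 1 of each, were also high in other genes. Hmgcs1, Sqle, Cyp51 and Insig1 too were highest in replicate 1 within both groups. M2 replicate 1 stood at 0.03 in the median of 21 cell cycle genes relative to PreDP, against -0.87 and -0.73 in replicates 2 and 3, and SM&M1 replicate 1 at -0.17, against -0.64 and -0.76. The same arrays were those high in macrophage genes, and their median of 4 NKT and innate-like T cell genes was 2.82 and 2.74 above PreDP, where replicates 2 and 3 of both groups had 0.77 to 2.30. The median of 6 double-positive thymocyte genes relative to PreDP was -4.02 in M2 replicate 1, against -6.22 and -6.38 in replicates 2 and 3. In SM&M1 replicate 1 it was -3.88, against -5.66 and -5.61. Tak1-deficient replicates 1 and 3 also had Idi1 at 9.11 and 9.69. Their cell cycle medians were -0.71 and -0.01 and their summed macrophage signals 747 and 2256. Their double-positive medians were -4.15 and -3.24. PreDP replicate 1 had the highest cell cycle median of its group, 0.68, and the highest Idi1, 9.90. PostDP replicate 1 had the highest cell cycle median of its group, -1.41 against -1.83 and -1.92, but the lowest Idi1, 8.001. The part of these gene lists in the values of Idi1 and the other genes was not tested. With replicate 1 of SM&M1 and of M2 left out, a choice made after seeing the data, Idi1 differed between M2 and PreDP by -1.47 (limma adjusted p = 0.0318). Sqle and Insig1 also passed.

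Fdft1 encodes squalene synthase, which commits the route to sterols. Its level was 9.86, 9.30 and 8.72 in PreDP, 9.13, 9.24 and 8.96 in PostDP, 9.27, 9.43 and 9.36 in SM&M1 and 9.06, 8.77 and 8.96 in M2. The Tak1-deficient SM&M1 values were 9.42, 8.27 and 9.43. The PreDP arrays alone spanned the whole range of the Tak1-sufficient groups, from their highest array to their lowest. The 3 M2 arrays lay below the 3 SM&M1 arrays, but the difference of -0.42 ± 0.31 (95% interval -1.09 to 0.24) did not pass in limma (adjusted p = 0.838).

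Sqle encodes squalene epoxidase, a slow step of the pathway. Its level was 8.60, 8.53 and 8.20 in PreDP, 7.83, 8.35 and 7.98 in PostDP, 7.93, 7.46 and 7.56 in SM&M1 and 7.92, 7.17 and 7.11 in M2. It was 7.91, 7.83 and 8.28 in Tak1-deficient SM&M1. Group means ran in the order of maturation, from 8.44 ± 0.22 in PreDP through 8.05 ± 0.27 in PostDP and 7.65 ± 0.25 in SM&M1 to 7.40 ± 0.45 in M2 (SD, n = 3), with overlap between each pair of neighbours. All 3 M2 arrays and all 3 SM&M1 arrays lay below all 3 PreDP arrays. Sqle fell by 1.04 ± 0.24 on the log2 scale from PreDP to M2 (SE, n = 3 per group; 95% interval -1.56 to -0.53; limma adjusted p = 0.005), a level 2.06-fold lower. The single steps were -0.39 ± 0.24, -0.40 ± 0.24 and -0.25 ± 0.24, and none passed.

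Lss encodes lanosterol synthase, which closes the sterol rings. Its level was 8.07, 7.97 and 7.96 in PreDP, 7.98, 8.32 and 8.36 in PostDP, 7.88, 7.82 and 8.30 in SM&M1 and 8.11, 7.83 and 7.86 in M2. Tak1-deficient SM&M1 had 8.001, 8.99 and 7.72. All groups overlapped, and the widest group was the Tak1-deficient one, with its outlying array on the high side. The difference from PreDP to M2 was -0.07 ± 0.27 (95% interval -0.64 to 0.51). A second, dimmer tested probe set was at 7.29, 6.54 and 7.30 in Tak1-deficient SM&M1, and at 7.06 or less in every array of the other groups. On it Tak1-deficient SM&M1 differed from SM&M1 by 0.37, against 0.24 on the brighter one, and neither passed.

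Cyp51 encodes the lanosterol demethylase. Its level was 7.40, 7.20 and 7.67 in PreDP, 7.57, 8.08 and 7.98 in PostDP, 8.34, 7.79 and 7.92 in SM&M1 and 7.80, 7.42 and 7.71 in M2. The Tak1-deficient SM&M1 values were 7.99, 6.996 and 8.26. On the probe set used, the PreDP mean, 7.42 ± 0.23, was the lowest of all groups, and the SM&M1 mean, 8.02 ± 0.29 (SD, n = 3), the highest. Each neighbouring pair in that order overlapped, and the difference from PreDP to PostDP of 0.45 ± 0.29 (95% interval -0.17 to 1.07) did not pass (limma adjusted p = 0.376). A second tested probe set, almost as bright, did not have PreDP lowest. It was at 7.72, 7.69 and 7.75 in PreDP and at 7.56, 7.37 and 7.36 in M2. On it PostDP differed from PreDP by 0.04, and M2 from PreDP by -0.29, against 0.22 on the brighter one.

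Sc5d encodes a desaturase near the end of the pathway. Its level was 9.21, 9.63 and 9.23 in PreDP, 9.04, 9.56 and 9.33 in PostDP, 9.15, 9.41 and 8.68 in SM&M1 and 9.08, 9.42 and 8.91 in M2. It was 9.21, 8.24 and 9.14 in Tak1-deficient SM&M1. Replicate 2 was the highest array in each of the first 4 groups, and the groups overlapped. A second, dimmer probe set of Sc5d gave another picture: it was at 7.57, 8.32 and 8.09 in PreDP and at 6.89, 7.30 and 7.33 in PostDP, apart from each other. On that probe set Sc5d differed between PostDP and PreDP by -0.82 (limma adjusted p = 0.0253 when it stood for the gene), against -0.04 on the brighter one, and between M2 and PreDP by -0.67 (0.0406), against -0.22.

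Insig1 encodes the endoplasmic reticulum protein that retains the SREBP precursors, and it is itself switched on by them. Its level was 9.98, 9.92 and 9.79 in PreDP, 9.14, 9.33 and 8.89 in PostDP, 9.04, 8.66 and 8.33 in SM&M1 and 9.10, 8.93 and 8.71 in M2. Tak1-deficient SM&M1 had 8.53, 7.23 and 8.48. The PreDP arrays lay above all 12 others, the only place in the ranked order of groups, over the 8 genes, where neighbours did not overlap. Insig1 fell by 0.98 ± 0.30 on the log2 scale from PreDP to M2 (SE, n = 3 per group; 95% interval -1.63 to -0.33; limma adjusted p = 0.026), a level 1.97-fold lower. This call was lost in limma when any PreDP array, or M2 replicate 2 or 3, was left out (adjusted p = 0.0506 to 0.0961), and after quantile normalization (0.0939) or median centring (0.0624), with a lower level in M2 each time. From PreDP to PostDP the difference was already -0.78 ± 0.30 (95% interval -1.43 to -0.13), which missed the threshold (adjusted p = 0.112) and passed without Tak1-deficient replicate 2 (limma adjusted p = 0.007) and in the replicate block fit (0.0137).

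The step from PreDP to PostDP compared double-positive cells before and after positive selection, sorted on CD69 and TCRβ. Of the 8 genes, 0 passed, where 14.9% of all genes tested did, 7.35% higher and 7.57% lower. Of the 8, 2 had an unadjusted p under 0.05 in limma, against 25.7% of all genes, and 2 did not overlap between groups, against 38.7% of all genes. The 8 genes had a median difference of -0.11, where all genes had 0.01. Without Tak1-deficient replicate 2, 1 gene passed, Insig1, with 25.2% of all genes. In the replicate block fit 1 gene passed as well, Insig1, where 2703 of 11871 genes were called. Cell cycle genes fell over the same step, 16 of 21 with a list median of -1.97, and T cell receptor induced genes rose, 14 of 14, both on lists chosen with earlier results of these data known.

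The step from PostDP to SM&M1 compared signalled double-positive cells with early CD4 single-positive cells of the other mouse line. Of the 8 genes, 0 passed, where 12.0% of all genes did, 7.84% higher and 4.14% lower, and 0 had an unadjusted p under 0.05 in limma, against 24.5% of all genes. Over 14 arrays, with Tak1-deficient replicate 2 left out, it was again 0 of 8, against 23.0%. The median difference was -0.14, against 0.03 over all genes, and 1 of 8 did not overlap between groups, against 40.9%. That gene, Fdft1, was not called. Over this step 11 of 21 cell cycle genes rose, with a list median of 1.47.

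M2 against SM&M1 compared late with early CD4 single-positive cells of one mouse line. Of the 8 genes, 0 passed, where 2.33% of all genes did, 0.952% higher and 1.38% lower, and 0 had an unadjusted p under 0.05 in limma, against 10.3%. Over 14 arrays 0 of 8 passed, against 5.66% of all genes. The median difference was -0.15, against -0.01 over all genes. In the replicate block fit 0 of the 8 passed as well, where 594 of 11871 genes were called. The intervals allow changes of up to -1.09 for Fdft1 and -1.19 for Idi1 in this step.

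**Figure D2:**
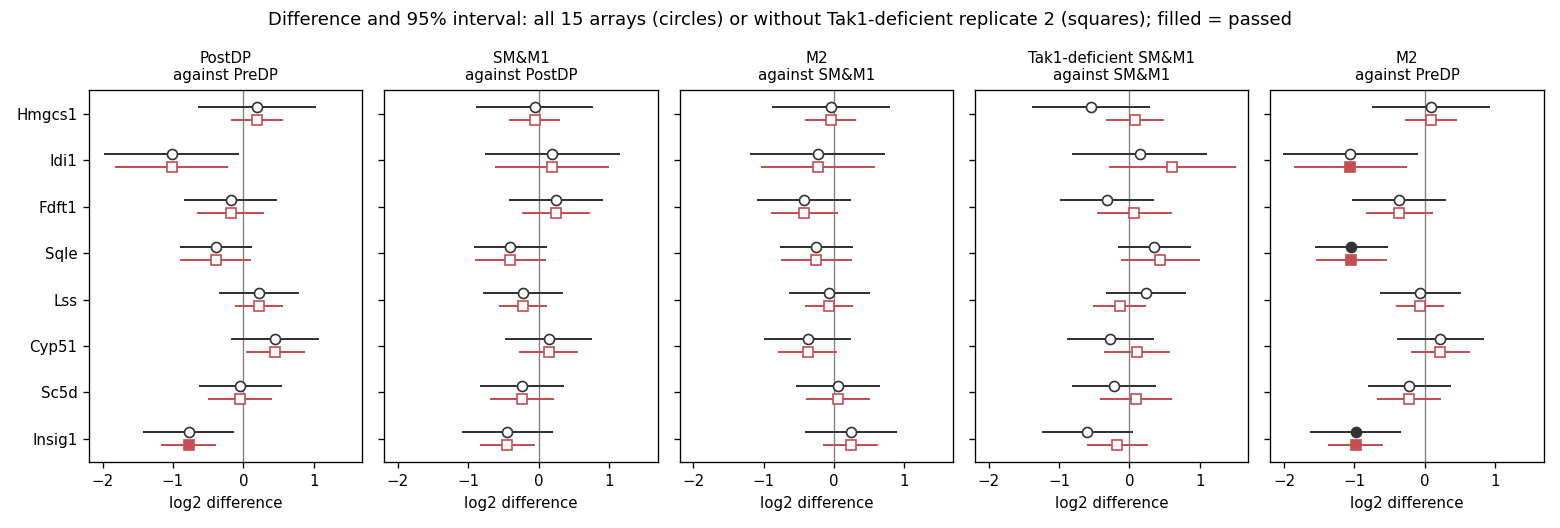
Difference in log2(signal + 16) of each gene in the 5 comparisons on the horizontal axis, with 95% intervals, from all 15 arrays (circles) and without Tak1-deficient replicate 2 (squares); filled symbols passed at an adjusted p under 0.05. Sqle and Insig1 are filled in M2 against PreDP for both fits, and Idi1 and, in PostDP against PreDP, Insig1 only for the fit of 14 arrays.

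M2 against PreDP set the latest stage against the earliest. Of the 8 genes, 2 fell, Sqle and Insig1, and 0 rose, where 27.1% of all genes passed, 14.6% higher and 12.5% lower. The 2 calls in 8 are near the share of all genes called in either direction, so the count is read as no result about the group. The median difference of the 8 was -0.29, against 0.05 over all genes, and 6 of 8 differences were below 0. Without Tak1-deficient replicate 2, 3 of 8 passed, against 39.6% of all genes. Sqle passed under every alternative in which it was tested, with adjusted p up to 0.0278.

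Tak1-deficient against Tak1-sufficient SM&M1 asked what depends on Tak1, a kinase upstream of NF-κB. Of the 8 genes, 0 passed, where 1.69% of all genes did, 0.430% higher and 1.26% lower, and 0 had an unadjusted p under 0.05 in limma, against 17.9%. With replicate 2 left out 0 of 8 passed, against 2.92% of all genes. With all arrays, Insig1 differed by -0.60 ± 0.30 (95% interval -1.24 to 0.05) and Hmgcs1 by -0.54 ± 0.39 (-1.38 to 0.29). Both rested on the outlying replicate 2: without it the differences were -0.17 (-0.61 to 0.27) and 0.08 (-0.33 to 0.49). The median of the 8 genes moved from -0.24 to 0.09 when that array was left out, where the median of all genes moved from 0.05 to 0.04. Over the remaining arrays Sqle differed by 0.44 (-0.12 to 1.002) and Idi1 by 0.61 (-0.29 to 1.51), and neither passed. Cd8a was higher in every Tak1-deficient array than in any SM&M1 array, as given above, but was not called. Of 6 tested double-positive thymocyte genes, 1 was called, Cd4, which was lower, with a mean of 11.30 against 12.22. Both tested genes of the mature M2 list, S1pr1 and Klf2, were also called lower, where 1.69% of all genes were called. Macrophage genes stood out in Tak1-deficient replicates 2 and 3 and in SM&M1 replicate 1. Of 4 tested macrophage genes, 0 passed in this comparison. The part of other cell types in the values was not tested.

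Replicate 2 of the Tak1-deficient group also separated probe sets of one gene. On Hmgcs1, 3 of 4 tested probe sets were lowest in that array (9.18, 8.24 and 9.33) and the fourth was at 9.003, within its range of 8.38 to 9.07 elsewhere. On Fdft1 the brightest probe set was at 8.27, its lowest array, and the next at 9.20, its highest. On Lss the brightest was at 8.99, its highest, and the other tested one at 6.54, against 7.29 and 7.30 in replicates 1 and 3. Idi1 was at 8.01 on one probe set and at 5.95 on the other. These differences accompany the higher Actb ratio of the array, and the part of RNA quality in them was not tested.

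**Figure D3:**
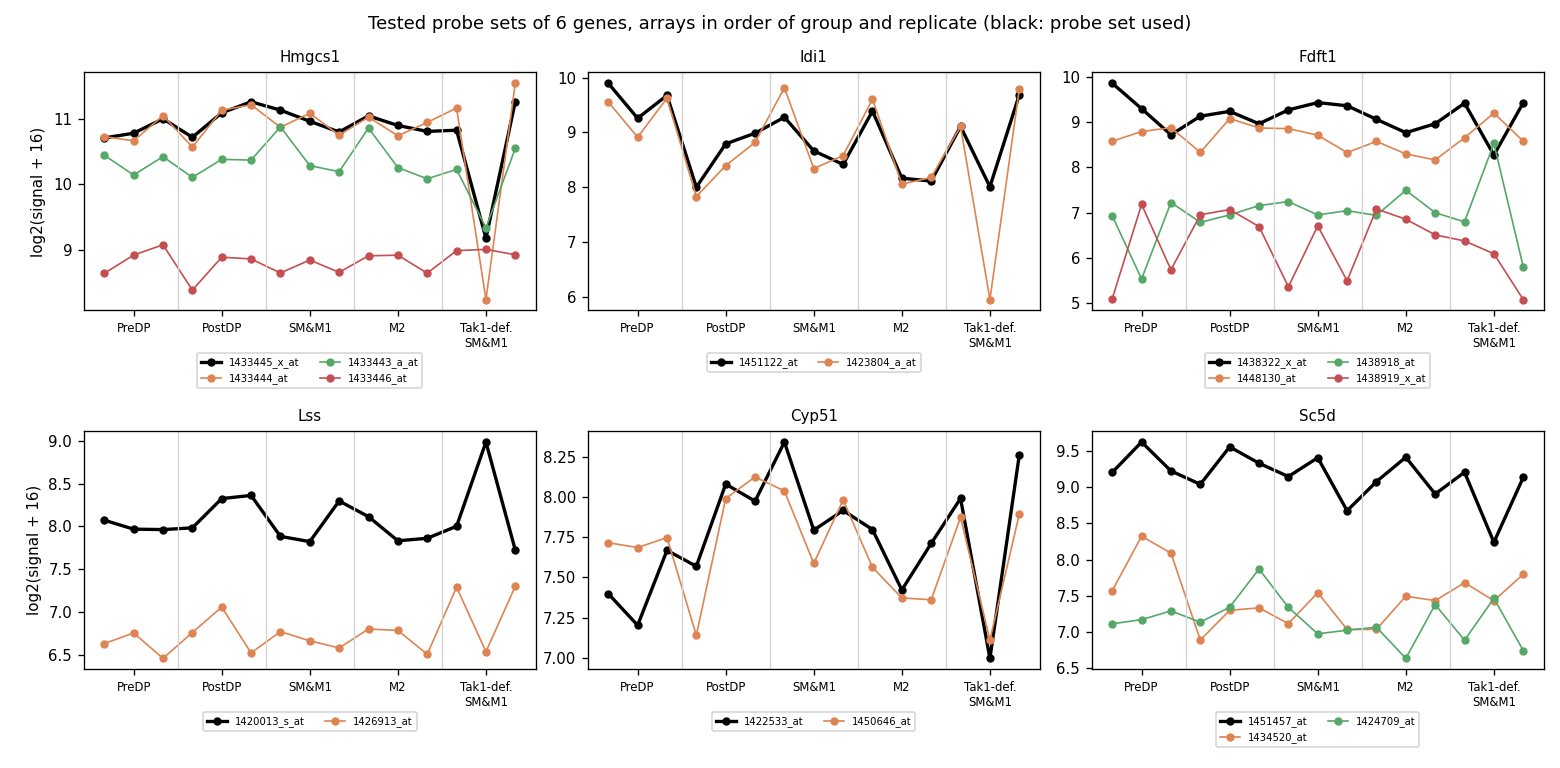
Level of every tested probe set of the 6 genes that have more than 1, as log2(signal + 16) on the vertical axis, with the 15 arrays in order of group and replicate on the horizontal axis; the black line is the probe set used. Probe sets of Idi1 and the 3 brighter ones of Hmgcs1 run together and drop in Tak1-deficient replicate 2, whereas those of Fdft1, Lss and Sc5d do not run together.

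Outside that array probe sets also differed, for Fdft1 and, as given above, for Lss, Cyp51 and Sc5d. The 2 dimmer probe sets of Fdft1 ranged from 5.53 to 7.49 and from 5.08 to 7.18 over the other 14 arrays, more than any difference between groups of the brighter pair. In the fit of all 15 arrays no tested probe set of Hmgcs1, Idi1, Lss or Cyp51 passed in any comparison. Sqle and Insig1 have 1 probe set each, so their falls could not be set against another.

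The genes that control the pathway were measured as well. Srebf2 encodes the SREBP that acts mainly on cholesterol genes, and its level was 9.996, 10.44 and 10.14 in PreDP, 10.02, 10.46 and 10.68 in PostDP, 9.45, 9.69 and 9.34 in SM&M1 and 9.30, 9.38 and 9.51 in M2. The Tak1-deficient SM&M1 values were 10.01, 9.29 and 10.05. All single-positive arrays of the Rag2GFP mice lay below all double-positive arrays. Srebf2 fell by 0.90 ± 0.23 on the log2 scale from PostDP to SM&M1 (limma adjusted p = 0.021) and by 0.80 ± 0.23 from PreDP to M2 (0.019; SE, n = 3 per group). Its other probe set differed by -0.14 and -0.30 in these comparisons and did not pass, so the fall rests on 1 of 2 probe sets. Mbtps1, the protease that makes the first cut in the SREBP precursors, fell by 0.88 ± 0.16 from PreDP to PostDP (adjusted p = 0.0022), with 11.51, 11.42 and 11.14 in PostDP, 11.30, 11.38 and 11.31 in SM&M1 and 11.29, 11.31 and 11.29 in M2, against 12.29, 12.29 and 12.12 in PreDP. Of 8 tested genes of sterol sensing and SREBP control, 1 fell from PreDP to PostDP (Mbtps1), 1 from PostDP to SM&M1 (Srebf2) and 3 from PreDP to M2 (both of these and Srebf1, by 0.43). With all 15 arrays 0 of the 8 rose in any of the 5 comparisons. All genes were called at 14.9%, 12.0% and 27.1% in these 3 comparisons, and counts of 1, 1 and 3 in 8 are near those shares. Mbtps2, the protease of the second cut, rose by 0.65 from PostDP to SM&M1 when Tak1-deficient replicate 2 was left out (limma adjusted p = 0.0038), and 2 of the 8 then fell from PreDP to PostDP, the second being Srebf1.

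Among 10 other synthesis enzymes tested, Mvk, the mevalonate kinase, had its lowest group mean in PostDP. It was at 7.76, 7.51 and 7.15 in PreDP, 6.24, 6.84 and 6.05 in PostDP, 7.59, 7.28 and 7.37 in SM&M1, 7.15, 6.44 and 7.48 in M2 and 7.89, 7.69 and 7.77 in Tak1-deficient SM&M1. The PostDP arrays lay below all others except M2 replicate 2, which was within their range. Mvk fell by 1.09 ± 0.27 from PreDP to PostDP (limma adjusted p = 0.0131) and rose by 1.03 ± 0.27 into SM&M1 (0.0226; SE, n = 3 per group). Mvk has 2 probe sets, and the other was not compared. Ebp, a late sterol isomerase, rose by 0.49 ± 0.15 from PostDP to SM&M1 (adjusted p = 0.0437), with 10.45, 10.39 and 10.52 before and 10.98, 10.89 and 10.96 after. Pmvk, the kinase after Mvk, fell by 0.62 from PreDP to M2. In all, 1 of the 10 fell from PreDP to PostDP, 2 rose from PostDP to SM&M1, 1 fell from PreDP to M2, and 0 passed in M2 or in Tak1-deficient SM&M1 against SM&M1, where all genes were called at 14.9%, 12.0%, 27.1%, 2.33% and 1.69%. The counts were higher without Tak1-deficient replicate 2: 2 fell from PreDP to PostDP, 4 rose and 1 fell from PostDP to SM&M1 (Mvd and Tm7sf2 also rose, and Dhcr7 fell), and 1 rose and 2 fell from PreDP to M2, against 25.2%, 23.0% and 39.6% of all genes.

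**Figure D4:**
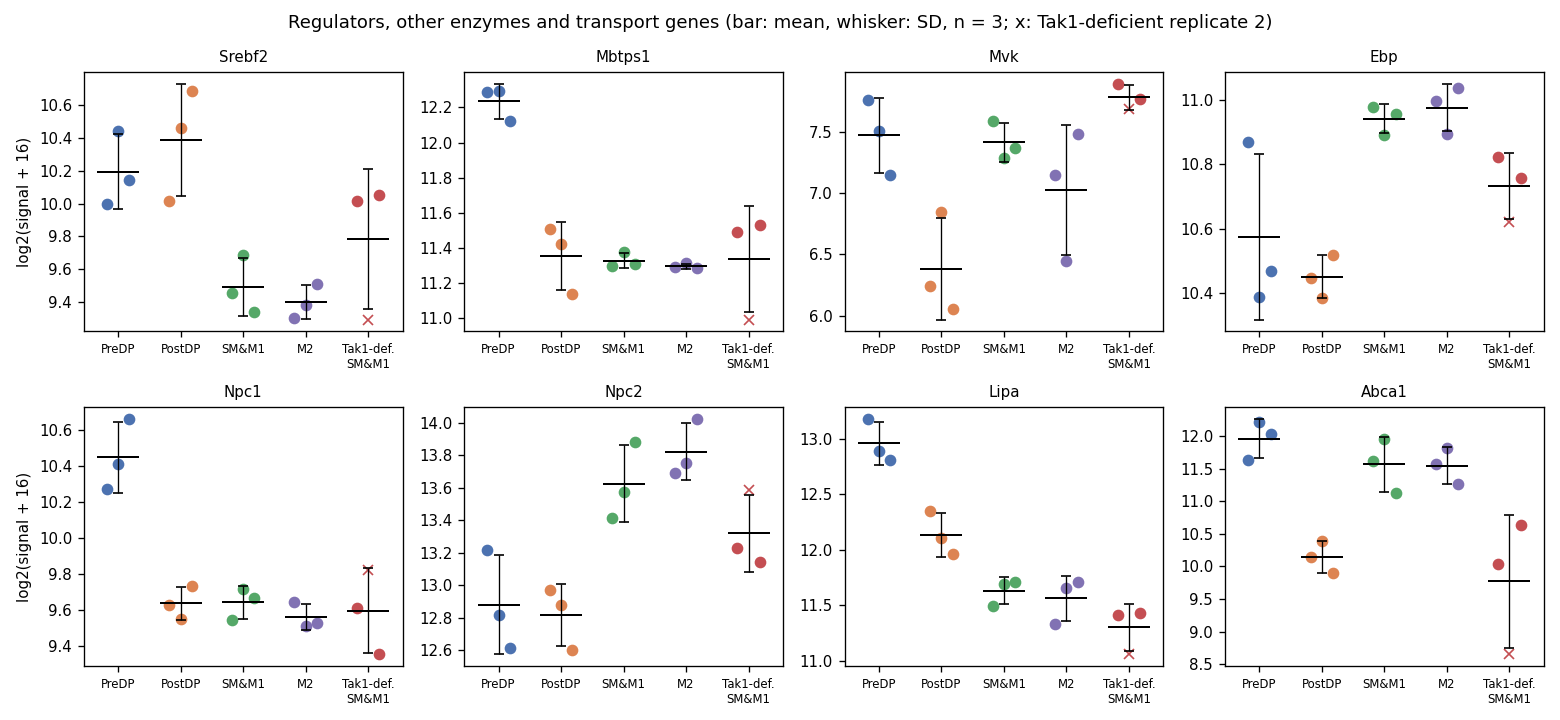
Level of 2 SREBP control genes, 2 other synthesis enzymes, 3 lysosomal genes and the exporter gene Abca1 in every array as log2(signal + 16) on the vertical axis, by group; bars are means, whiskers SDs (n = 3), crosses Tak1-deficient replicate 2, and each panel has its own scale. Mbtps1, Npc1 and Lipa are highest in PreDP, Npc2 is highest in SM&M1 and M2, and Abca1 is low in PostDP and in Tak1-deficient SM&M1.

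Cholesterol taken up with lipoproteins is freed in the lysosome and handed on from there. Lipa, the lysosomal lipase that frees cholesterol from its esters, fell by 0.82 ± 0.17 from PreDP to PostDP (limma adjusted p = 0.0054) and by 1.40 ± 0.17 from PreDP to M2, with 13.18, 12.89 and 12.81 in PreDP and 11.33, 11.66 and 11.71 in M2. Npc1, the membrane protein that exports the freed cholesterol, fell by 0.81 ± 0.16 from PreDP to PostDP (adjusted p = 0.0027) and by 0.89 from PreDP to M2. Npc2, its soluble partner, rose by 0.81 ± 0.20 from PostDP to SM&M1 (adjusted p = 0.0183) and by 0.94 from PreDP to M2. Of 8 tested genes of cholesterol uptake and intracellular transport, 2 fell from PreDP to PostDP, 1 rose from PostDP to SM&M1, and from PreDP to M2 1 rose and 3 fell, the third being the receptor gene Lrp8 (by 0.59), where 14.9%, 12.0% and 27.1% of all genes were called. Lipa also fell from PostDP to SM&M1, and Stard3 from PreDP to M2, without Tak1-deficient replicate 2, against 23.0% and 39.6% of all genes called.

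Abca1, the exporter that loads cholesterol onto apolipoproteins and a target of the LXR sterol sensors, passed in 3 comparisons. It was at 11.63, 12.22 and 12.03 in PreDP, 10.14, 10.39 and 9.90 in PostDP, 11.63, 11.96 and 11.12 in SM&M1, 11.57, 11.82 and 11.26 in M2 and 10.04, 8.65 and 10.64 in Tak1-deficient SM&M1. The PostDP and Tak1-deficient arrays lay below every array of the other 3 groups. Abca1 fell by 1.82 ± 0.40 from PreDP to PostDP (limma adjusted p = 0.007), rose by 1.43 ± 0.40 into SM&M1 (0.034), and was lower in Tak1-deficient than in Tak1-sufficient SM&M1 by -1.79 ± 0.40 (0.042; SE, n = 3 per group), or by -1.23 without replicate 2 (0.038). In this last comparison limma called 5 of 11871 genes when only its 2 groups were fitted and 0 with the replicate block, in which the numbers did not pair the samples. A dimmer tested probe set of Abca1 differed by -0.02, 0.12 and 0.59 in these comparisons, so the changes rest on 1 of 2 tested probe sets. Abcg1, a second exporter, fell by 0.65 and rose by 0.55 over the first and second step. Lpcat3, an enzyme of phospholipids that LXR also controls, fell by 0.85 from PostDP to SM&M1 and by 0.58 from PreDP to M2. Of 7 tested genes of cholesterol esterification, oxidation, efflux and LXR, 2 fell from PreDP to PostDP, 2 rose and 1 fell from PostDP to SM&M1, 0 passed from SM&M1 to M2, 1 was lower in Tak1-deficient SM&M1 and 1 fell from PreDP to M2, where all genes were called at 14.9%, 12.0%, 2.33%, 1.69% and 27.1%. The comparisons of successive stages share the arrays of the stage between them, so opposite differences in neighbouring steps are not independent.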

How the data were processed

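RNA from sorted mouse thymocytes was amplified in a single round and labelled with biotin, per the labels' protocols. The authors deposited a linear intensity for each of 45101 probe sets on each of 15 arrays. How it was computed and scaled is not given in the sources used here. Each array's mean after trimming 2% at each end is 500, so no further normalization was applied. Arrays were grouped by their labels, 3 in each of 5 groups.

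Probe sets were named through the platform's annotation: 34945 had 1 gene, 932 had several and were not used, 64 were controls, and 34741 of the first were given current symbols through their Entrez number in RefSeq (GRCm38.p6). Each gene was represented by its brightest probe set on average. Intensity was analysed as log2(intensity + 16), which understates changes of dim genes. Genes above the array median in at least 3 arrays were tested (11871 of 18193). Python (3.11.15), R (4.3.3) and limma (3.58.1) were used, with 1 mean per group, 10 residual degrees of freedom and Benjamini-Hochberg adjustment. The scripts were tested on simulated data.

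The labels number the replicates without saying what a number marks. Same-numbered deviations from the group means correlated at 0.339, 0.275 and 0.411 between PreDP and PostDP and at 0.553, 0.436 and 0.326 between SM&M1 and M2, so the numbers were taken to pair those samples. They did not in the other 3 comparisons, where the correlations ran from -0.244 to 0.150. The replicate block was an alternative, beside a fit of only the groups compared, other filters, quantile normalization, median centring, other probe sets, a pseudocount of 1, moderation with trend, array weights and leaving out arrays. Leaving out replicate 1 of SM&M1 and M2 together was added after seeing the data.

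Genes outside the 8 were named where they passed in a comparison and stand on a list of the pathway. Among them, other probe sets were compared for Srebf2 and Abca1 alone. For the rest, such as Mvk, Mbtps1, Lipa and Npc2, which have several, the changes rest on the brightest probe set. The 8 genes and the lists were chosen with earlier results of these data known. Some genes of the pathway are not reported here.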

Additional observations from a re-analysis of the deposited data

How the results depend on the processing

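Of 729 differences of the 8 genes under alternatives, 0 reversed while called, 52 changed sign without a call under either setting (none larger than 0.63), 14 became called and 7 lost the call. In PostDP against PreDP, where none of the 8 was called, 2 were called when only the PreDP and PostDP arrays were fitted (Idi1 at an adjusted p of 0.0495, Insig1 at 0.0145), 2 with array weights (Cyp51 and Insig1), 1 with the second probe set (Sc5d), 1 with the replicate block (Insig1) and 0 to 1 when arrays were left out. In SM&M1 against PostDP it was 1 with array weights (Insig1, adjusted p of 0.0414). In M2 against PreDP, where 2 were called, it was 1 at the filter of the 75th percentile (Insig1, since Sqle was then not tested), 1 after quantile normalization and 1 after median centring (Sqle in both), and 1 to 3 when arrays were left out, and 3 with the second probe set (Sc5d added). Insig1 thus kept its direction but not its call, and the cause was not tested. The other 2 comparisons had 0 of 8 called under every alternative run. The replicate block changed no other count of the 8 by a call except Idi1 in M2 against PreDP, called at an adjusted p of 0.0246, in a comparison where the numbers did not pair the samples. Over all genes, the counts called ranged from 1171 to 3696 for PostDP against PreDP (1772 in the reported fit, 2703 with the replicate block), 825 to 3389 for SM&M1 against PostDP (1423), 82 to 931 for M2 against SM&M1 (277, or 594 with the replicate block), 0 to 373 for Tak1-deficient against Tak1-sufficient SM&M1 (201) and 2385 to 5495 for M2 against PreDP (3222). Median centring moved the median of all genes by -0.145, -0.147 and -0.151 in PostDP against PreDP, Tak1-deficient against SM&M1 and M2 against PreDP, and the share of calls that were higher from 49.3% to 36.1% from 25.4% to 13.4% and from 53.9% to 44.5%.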

Other observations

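Genes that use other products of the same route were also measured. Of 11 tested genes of the isoprenoid branch, which makes ubiquinone, dolichol and protein prenyl groups, 3 rose from PreDP to M2 (Coq2 by 0.89, Nus1 by 0.81 and Fntb by 0.49) and Icmt fell by 0.86, with Fnta also falling when Tak1-deficient replicate 2 was left out. Coq2, which prenylates the ubiquinone ring, rose in each of the first and second steps, by 0.45 and 0.49. Of 13 tested genes of fatty acid synthesis and desaturation, 4 rose from PreDP to M2 and 3 fell. The elongase genes Elovl6, Elovl1 and Elovl5 rose by 1.19, 0.85 and 0.81 and the fatty acid synthase gene Fasn by 0.72. The acyl-CoA ligase gene Acsl3 fell by 1.503, the desaturase gene Fads1 by 1.25 and the desaturase gene Scd2 by 0.63. All of these were called by limma at an adjusted p under 0.05, where 27.1% of all genes were called.

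The genes whose levels ran most alike with the mean profile of the 8 over the 15 arrays were Gtf2e2 (Pearson r = 0.961), Trim37 (0.922) and Zranb2 (0.909), and 0 of the 10 most alike stood on a list of the pathway. Without Tak1-deficient replicate 2 they were Gtf2e2 (0.929), Pi4k2b (0.896) and Golga7 (0.880). These values describe arrays that share groups and carry no test.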
